A study of Mus musculus with 24 samples.

Results

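The dual-specificity MAP kinase phosphatases were described by 10 transcripts, Dusp1, Dusp2, Dusp4, Dusp5, Dusp6, Dusp7, Dusp8, Dusp10, Dusp14 and Dusp16, chosen by gene name among 25160 genes and each represented by its most abundant listed RefSeq transcript. Their RNA was measured by sequencing in derivatives of RAW 264.7, a mouse macrophage line, that carried a doxycycline-inducible construct for the nuclear receptor Nur77 (the Nur77 line) or for GFP (the GFP line). All groups, the 0 h ones included, received 50 ng/ml doxycycline for 18 h. The cells then had lipopolysaccharide (LPS, which bacteria carry and Toll-like receptor 4 senses) at 500 ng/ml. The groups were the Nur77 line at 0, 1 and 5 h and the GFP line at 0, 1 and 5 h, with 4 libraries in each and 24 in all. Each construct was carried by 1 stable line, so an effect of the construct and a difference between the lines themselves cannot be told apart. The labels name neither the promoter nor the species of the construct, and they do not say whether replicates were separate cultures, so p-values measure only the spread between these libraries, which may be technical.

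MAP kinases are switched on by phosphorylation of a threonine and a tyrosine in one loop, and the dual-specificity phosphatases remove both phosphates. In macrophages the kinases ERK, JNK and p38 act below Toll-like receptors, and several of the phosphatase genes are themselves transcribed when these kinases are active. Members differ in where the protein sits and in which kinase it prefers: Dusp1, Dusp2, Dusp4 and Dusp5 are nuclear, Dusp6 and Dusp7 are cytoplasmic and prefer ERK, and Dusp8, Dusp10 and Dusp16 prefer JNK and p38. Dusp14 is a small member without the kinase-binding domain of the others.

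Summed counts were 8134143 to 29275847 per library, and all 10 transcripts passed the filter on low counts that left 12198 genes. Levels are given as CPM, counts scaled to a common library size adjusted for composition. Nr4a1, the mouse gene of Nur77, stood at 2.74 to 3.71 CPM in the Nur77 line and 2.46 to 3.34 CPM in the GFP line at 0 h, so these counts showed no induced construct and do not check the labels; reads of a construct of another species or codon use would not be counted there. The libraries had macrophage RNA. The 12 macrophage markers summed to 5463 to 7940 CPM in the Nur77 line and 10226 to 11631 CPM in the GFP line. By group mean, 10 of these 12 were above 1 CPM in the Nur77 line and 11 in the GFP line at each time. All 6 epithelial markers were at 0, and fibroblast and lymphocyte markers summed to at most 0.723 and 0.379 CPM. Neutrophil markers summed to 1.07 to 4.58 CPM. Replicate 2 of the Nur77 line at 1 h stood apart. On the first principal component of all genes it lay at 11.7 and the other 3 libraries of its group lay at -11.4 to -10.2. Among the phosphatases it was above the other 3 for Dusp5, Dusp6, Dusp7 and Dusp14 and below them for Dusp1, Dusp2, Dusp4 and Dusp16. Fold changes of single transcripts that rest on the Nur77 line at 1 h are therefore given with and without it.

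**Figure D1:**
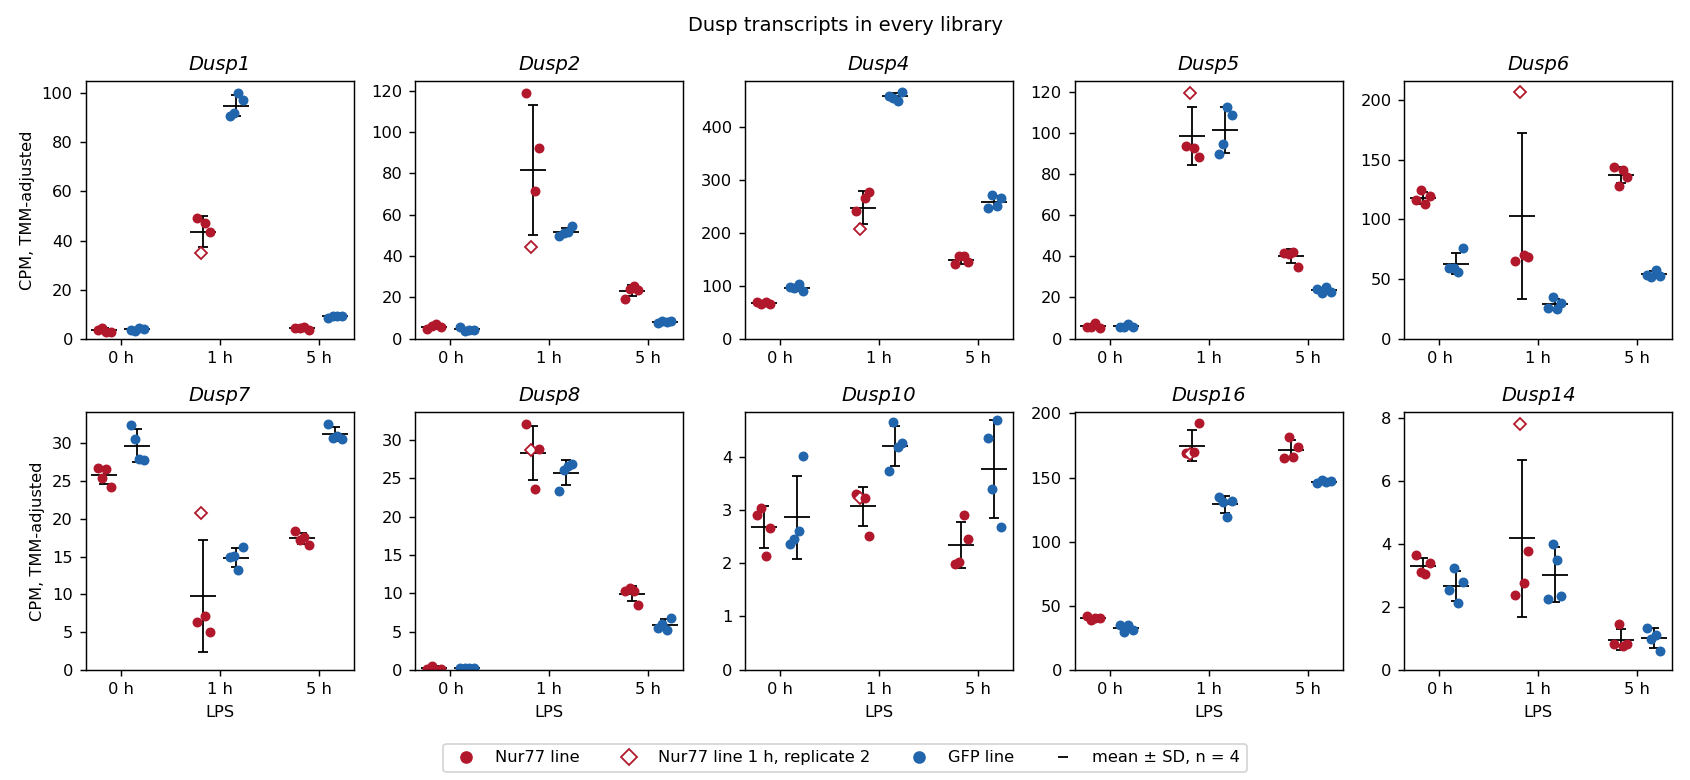
Level of each Dusp transcript in every library, in CPM on a linear axis from 0, by line and hours after LPS; horizontal marks with bars are the mean and SD of 4 libraries, and the open diamond is Nur77 line 1 h replicate 2. Dusp1, Dusp2, Dusp4, Dusp5 and Dusp8 peaked at 1 h in both lines, and the open diamond lies far above its group for Dusp6 and Dusp7.

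The 200 bases that end 51 bases before the annotated start were read from the RefSeq promoters of GRCm38.p6 for the 9 members that have one there (all but Dusp4). Those of Dusp1, Dusp8 and Dusp5 are shown because these transcripts had some of the steepest rises after LPS and because they hold motifs of factors that act below MAP kinases. Capitals mark the cAMP response element (CRE, TGACGTCA) in Dusp1 and Dusp8 and the CArG boxes, bound by serum response factor, in Dusp5. Dusp2 also rose steeply, and its window held neither of these motifs.
Dusp1, chr17:26508523-26508722, minus strand: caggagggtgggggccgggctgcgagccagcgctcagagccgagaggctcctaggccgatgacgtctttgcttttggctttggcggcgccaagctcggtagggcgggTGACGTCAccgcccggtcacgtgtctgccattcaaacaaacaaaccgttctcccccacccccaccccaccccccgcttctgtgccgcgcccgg
Dusp8, chr7:142095335-142095534, minus strand: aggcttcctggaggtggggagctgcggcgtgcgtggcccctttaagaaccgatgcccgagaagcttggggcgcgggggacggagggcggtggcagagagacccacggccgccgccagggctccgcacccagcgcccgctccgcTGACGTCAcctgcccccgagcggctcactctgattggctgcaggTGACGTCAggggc
Dusp5, chr19:53528895-53529094, plus strand: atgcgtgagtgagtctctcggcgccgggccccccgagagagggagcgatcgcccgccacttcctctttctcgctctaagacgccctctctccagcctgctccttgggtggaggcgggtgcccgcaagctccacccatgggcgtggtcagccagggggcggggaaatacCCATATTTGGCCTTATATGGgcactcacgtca
Both strands were searched. The CRE stood at bases -143 to -136 from the start of Dusp1 and at -107 to -100 and -63 to -56 of Dusp8. The windows of Dusp8, Dusp14 and Dusp16 lie within the annotated extents of those genes, and that of Dusp7 overlaps its gene. The CRE was in the windows of 2 of 9 members and of 0.828% of 32851 promoters searched. Its core TGACG, which the CRE contains, was in 4 of 9 members and in 12.7% of promoters. The CArG boxes stood at -82 to -73 and -72 to -63 of Dusp5, and 1.16% of promoters held one. The NF-kappaB pattern, GGG and CC with any 5 bases between, was in 6 of 9 members and 37.2% of promoters. The AP-1 site TGANTCA and the Nur77 binding element AAAGGTCA were in none of the 9 windows, against 5.57% and 1.08% of promoters. A match is a stretch of letters in this window and not a measured site.

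LPS raised most of these phosphatase transcripts within 1 h in both lines. In the Nur77 line 6 of the 10 rose and 1 fell at 1 h against 0 h (adjusted p under 0.05), where 22.5% of all tested genes rose and 21.8% fell. Without replicate 2, 6 rose and 2 fell, where 38.2% of all genes were called in either direction. In the GFP line 7 rose and 2 fell, where 9.75% of genes rose and 7.68% fell. The median log2 fold change of the 10 was 1.99 in the Nur77 line and 2.12 in the GFP line, and that of all genes was -0.02 and -0.01. Dusp1, Dusp2, Dusp4, Dusp5, Dusp8 and Dusp16 rose in both lines and Dusp10 rose in the GFP line. Dusp7 fell in both lines, and Dusp6 fell in the GFP line and, without replicate 2, in the Nur77 line. In bulk RNA, a change in the share of cells that express a gene and a change in its amount per cell cannot be told apart.

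**Figure D2:**
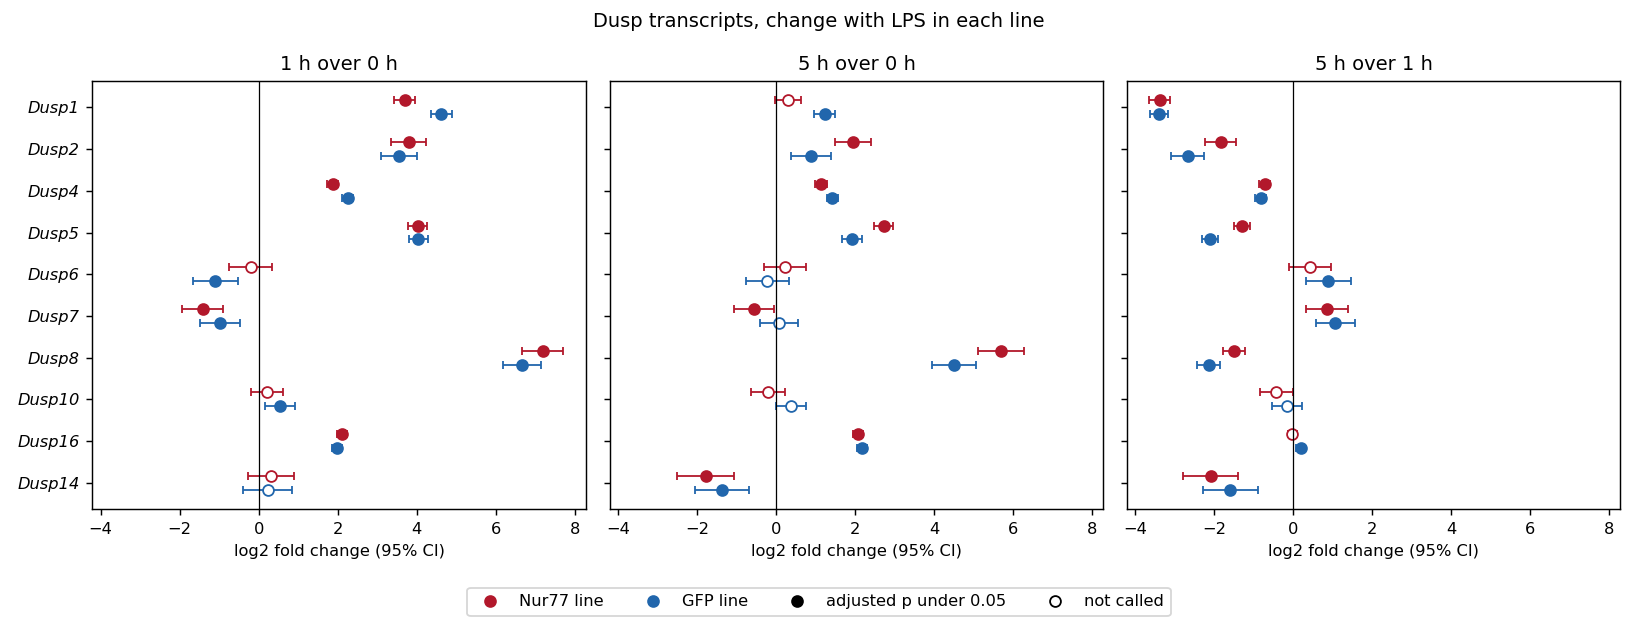
Log2 fold change of each Dusp transcript with LPS (x axis, same scale in each panel) for 1 h over 0 h, 5 h over 0 h and 5 h over 1 h, in the Nur77 line and the GFP line, from all 24 libraries; bars are 95% confidence intervals, and filled points have an adjusted p under 0.05. Dusp8 lies farthest to the right in the first panel at 7.19 and 6.66, and Dusp6 and Dusp7 lie left of 0 there.

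Dusp1 (NM_013642, chromosome 17, 26505591 to 26508472, GRCm38) encodes a nuclear phosphatase of p38, JNK and ERK that is known as an early brake on cytokine output in LPS-treated macrophages. At 0 h Dusp1 had 3.55, 4.40, 2.80 and 2.85 CPM in the Nur77 line, against 3.38, 3.08, 4.54 and 4.06 CPM in the GFP line. The lines overlapped before LPS. At 1 h Dusp1 had 49.0, 34.9, 47.2 and 43.6 CPM in the Nur77 line, against 90.9, 91.9, 100.2 and 97.2 CPM in the GFP line. Every GFP library was above every Nur77 library at that time. At 5 h Dusp1 had 4.25, 4.32, 4.60 and 3.46 CPM in the Nur77 line, against 8.27, 9.26, 9.28 and 9.35 CPM in the GFP line. The groups again did not overlap. Between the lines, the log2 fold change was -0.19 ± 0.16 (SE) at 0 h (adjusted p = 0.36), -1.12 ± 0.10 at 1 h (adjusted p = 1.2e-09, and -1.02 without replicate 2) and -1.11 ± 0.13 at 5 h (adjusted p = 2.2e-07). The rise at 1 h was thus 3.69 in the Nur77 line (3.79 without replicate 2) and 4.62 in the GFP line on the log2 scale, and the level then fell to about the same fraction in both, 9.53% of the 1 h mean in the Nur77 line (8.93% without replicate 2) and 9.51% in the GFP line. At 5 h Dusp1 was still above its 0 h level in the GFP line (log2 fold change 1.23, adjusted p = 1.3e-08). In the Nur77 line the difference of 0.31 was not called (adjusted p = 0.085), though 2 of 16 alternative fits called it (lowest adjusted p = 0.017).

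The difference of the Dusp1 response between the lines was itself called. It was -0.93 ± 0.19 (SE) at 1 h (adjusted p = 0.0092), and -0.83 without replicate 2 (adjusted p = 0.0046). At 5 h against 0 h it was -0.92 ± 0.21 (adjusted p = 0.0057). From 1 h to 5 h the difference was 0.01 (-0.08 without replicate 2), with a 95% confidence interval from -0.38 to 0.40. The call at 1 h was lost without Nur77 line 0 h replicate 2 (-0.77, adjusted p = 0.061) and where just the groups compared were fitted (-0.91, adjusted p = 0.0599).

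Dusp2 (NM_010090, chromosome 2, 127336159 to 127338377) encodes a nuclear phosphatase first known as a product of activated leukocytes. It moved opposite to Dusp1 between the lines. At 0 h Dusp2 had 4.67, 6.05, 7.02 and 5.71 CPM in the Nur77 line, against 5.57, 3.83, 4.17 and 4.24 CPM in the GFP line. At 1 h Dusp2 had 119, 44.6, 71.6 and 92.0 CPM in the Nur77 line, against 49.5, 51.1, 51.4 and 54.3 CPM in the GFP line. Replicate 2 alone lay below the GFP libraries, and the other 3 lay above all of them. At 5 h Dusp2 had 19.3, 23.9, 25.5 and 23.6 CPM in the Nur77 line, against 7.54, 8.37, 8.01 and 8.61 CPM in the GFP line. These groups were far apart. Between the lines the log2 fold change was 0.43 at 0 h (adjusted p = 0.19), 0.67 ± 0.18 at 1 h (adjusted p = 0.0033) and 1.50 ± 0.21 at 5 h (adjusted p = 2.9e-06). At 1 h it was 0.87 without replicate 2 (adjusted p = 1.4e-06) and 0.42 without replicate 1 (adjusted p = 0.023), and where just the groups compared were fitted the call was lost (adjusted p = 0.054).

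The rise of Dusp2 at 1 h was 3.79 in the Nur77 line (3.99 without replicate 2) and 3.55 in the GFP line on the log2 scale. The 5 h level stood at 28.2% of the 1 h level in the Nur77 line (24.5% without replicate 2) and at 15.8% in the GFP line. At 5 h the responses differed by 1.07 ± 0.33, at the edge of the threshold (adjusted p = 0.048). It passed in only 2 of the 16 fits that left out 1 library of these groups (adjusted p up to 0.10). Over all 24 alternative fits it passed in 8 (lowest adjusted p = 0.00017). The difference of the 1 to 5 h course was 0.83 (adjusted p = 0.071), or 0.63 when replicate 2 at 1 h was left out (adjusted p = 0.025).

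Dusp4 (NM_176933, chromosome 8, 34807610 to 34819894) encodes a nuclear phosphatase of ERK and JNK and was, per length, the most abundant member at 1 h and 5 h in both lines. At 0 h Dusp4 had 69.6, 65.7, 69.5 and 66.4 CPM in the Nur77 line, against 98.0, 95.3, 102 and 89.1 CPM in the GFP line. At 1 h Dusp4 had 241, 207, 265 and 278 CPM in the Nur77 line, against 459, 456, 450.1 and 467 CPM in the GFP line. At 5 h Dusp4 had 141, 155, 156 and 145 CPM in the Nur77 line, against 247, 271, 251 and 266 CPM in the GFP line. Every Nur77 library was below every GFP library at all 3 times. Between the lines the log2 fold change was -0.50 ± 0.07 at 0 h (adjusted p = 2.0e-06), -0.89 ± 0.07 at 1 h (adjusted p = 7.2e-11, and -0.81 without replicate 2) and -0.79 ± 0.07 at 5 h (adjusted p = 5.8e-10). LPS raised Dusp4 by 1.87 in the Nur77 line (1.95 without replicate 2) and 2.25 in the GFP line at 1 h, and by 1.14 and 1.43 at 5 h, on the log2 scale. The difference of the 1 h response, -0.38, did not pass (adjusted p = 0.051). It was -0.31 without replicate 2 (adjusted p = 0.039), and it passed in 5 of the 16 fits that left out 1 library: each of the 4 without a Nur77 line 1 h library and the one without GFP line 0 h replicate 3.

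Dusp5 (NM_001085390, chromosome 19, 53529145 to 53541809) encodes a nuclear phosphatase selective for ERK. An annotated antisense gene, AC137853.2, overlaps 547 of its exonic bases. How the counting treated strand is not given in these sources, so reads of the antisense gene could be among these counts. At 0 h Dusp5 had 5.72, 5.71, 7.49 and 5.19 CPM in the Nur77 line, against 5.83, 5.88, 7.15 and 5.69 CPM in the GFP line. At 1 h Dusp5 had 93.5, 119, 92.6 and 88.3 CPM in the Nur77 line, against 89.5, 94.4, 112 and 109 CPM in the GFP line. The lines overlapped at both times. At 5 h Dusp5 had 41.8, 41.1, 42.2 and 35.0 CPM in the Nur77 line, against 24.1, 22.1, 24.9 and 22.7 CPM in the GFP line, with no overlap.

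The induction of Dusp5 at 1 h was nearly the same size in both lines, 4.02 in the Nur77 line (3.92 without replicate 2) and 4.03 in the GFP line on the log2 scale. The difference was -0.01, its 95% confidence interval -0.36 to 0.33. Without replicate 2 it was -0.12 (adjusted p = 0.73). What differed was the later course. The 5 h level was 40.7% of the 1 h level in the Nur77 line (43.8% without replicate 2) and 23.2% in the GFP line. Between the lines the log2 fold change was -0.03 at 0 h, -0.04 at 1 h (-0.15 without replicate 2) and 0.77 ± 0.10 at 5 h (adjusted p = 7.8e-07). The difference of the 1 to 5 h course was 0.82 ± 0.14 (adjusted p = 0.00043), and 0.92 without replicate 2 (adjusted p = 4.5e-06). At 5 h against 0 h the responses differed by 0.80 ± 0.17 (adjusted p = 0.0032).

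Dusp6 (NM_026268, chromosome 10, 99263231 to 99267489) encodes the cytoplasmic ERK phosphatase whose transcript is widely used as a readout of ERK activity. It was higher in the Nur77 line at every time. At 0 h Dusp6 had 116, 125, 113 and 119.6 CPM in the Nur77 line, against 59.5, 59.4, 56.3 and 75.7 CPM in the GFP line. At 1 h Dusp6 had 65.1, 207, 70.5 and 68.4 CPM in the Nur77 line, against 25.9, 35.2, 24.9 and 29.9 CPM in the GFP line. At 5 h Dusp6 had 144, 128, 141 and 136 CPM in the Nur77 line, against 53.4, 51.6, 57.9 and 52.6 CPM in the GFP line. No libraries overlapped between the lines at any time, and the 207 CPM of replicate 2 was the highest value of all 24 libraries. Between the lines it differed by a log2 fold change of 0.91 ± 0.26 at 0 h (adjusted p = 0.0079), 1.81 ± 0.27 at 1 h (adjusted p = 1.8e-05) and 1.35 ± 0.26 at 5 h (adjusted p = 0.00026). Without replicate 2 it was 1.21 at 1 h (adjusted p = 4.3e-11).

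Dusp6 fell at 1 h in the GFP line, with a log2 fold change of -1.10 ± 0.27 (adjusted p = 0.0065). In the Nur77 line the value was -0.21 and was not called (adjusted p = 0.54), but without replicate 2 it was -0.80 and passed (adjusted p = 7.5e-08). By 5 h the level was 0.22 above 0 h in the Nur77 line (adjusted p = 0.47) and -0.22 from it in the GFP line (adjusted p = 0.48). These non-calls depended on the fit. Each change was called in 2 of 16 alternative fits (lowest adjusted p = 0.00066 and 0.026), though in none of the 8 that left out 1 library compared. From 1 h to 5 h it rose by 0.88 in the GFP line (adjusted p = 0.0099). In the Nur77 line this change was 0.42 (adjusted p = 0.17), and 1.02 without replicate 2 (adjusted p = 2.9e-10). Between the lines, the 1 h response differed by 0.89 (adjusted p = 0.19), and 0.30 without replicate 2 (adjusted p = 0.22). The 5 h response differed by 0.44 (adjusted p = 0.54), a difference called in 2 of 24 alternative fits (lowest adjusted p = 0.0040).

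Dusp7 (NM_153459, chromosome 9, 106368560 to 106375724) encodes another cytoplasmic ERK phosphatase, and its difference between the lines ran opposite to that of Dusp6. At 0 h Dusp7 had 26.8, 25.4, 26.6 and 24.2 CPM in the Nur77 line, against 32.4, 30.6, 27.9 and 27.8 CPM in the GFP line. At 1 h Dusp7 had 6.29, 20.7, 7.06 and 5.02 CPM in the Nur77 line, against 14.9, 15.02, 13.2 and 16.3 CPM in the GFP line. Replicate 2 lay above all GFP libraries, and the other 3 lay below all of them. At 5 h Dusp7 had 18.4, 17.2, 17.5 and 16.6 CPM in the Nur77 line, against 32.6, 30.8, 31.0 and 30.6 CPM in the GFP line, with no overlap. Between the lines the log2 fold change was -0.20 at 0 h (adjusted p = 0.53), -0.63 ± 0.26 at 1 h (adjusted p = 0.0496) and -0.84 ± 0.24 at 5 h (adjusted p = 0.0061). The 0 h libraries did not overlap between the lines, and the 0 h difference was called in 2 of 16 alternative fits (lowest adjusted p = 0.020). At 1 h the value was -1.25 without replicate 2 (adjusted p = 3.5e-11). The call at 1 h was lost in each of the other 7 fits that left out a library compared (adjusted p from 0.058 to 0.16).

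With LPS, Dusp7 changed at 1 h by -1.41 ± 0.25 on the log2 scale in the Nur77 line (adjusted p = 0.00013, and -2.04 without replicate 2) and by -0.99 ± 0.24 in the GFP line (adjusted p = 0.0055). The difference of these responses was -0.43 (adjusted p = 0.51), and without replicate 2 it was -1.05 (adjusted p = 3.2e-06). At 5 h against 0 h the log2 fold change was -0.56 in the Nur77 line (adjusted p = 0.046) and 0.08 in the GFP line (adjusted p = 0.78). The call in the Nur77 line was lost in all 8 fits that left out 1 library compared. Over all 16 alternative fits it held in 6 (lowest adjusted p = 4.8e-07), and the 5 h libraries lay below all 0 h libraries of that line. At 5 h the difference of the responses was -0.64 and was not called (adjusted p = 0.28). It passed where the spread shared by all groups was estimated without replicate 2 (-0.64, adjusted p = 0.00011). From 1 h to 5 h Dusp7 rose by 0.86 in the Nur77 line, 1.48 without replicate 2, and by 1.07 in the GFP line.

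Dusp8 (NM_008748, chromosome 7, 142079487 to 142095907), a phosphatase of JNK and p38, was nearly silent at 0 h and had the largest rise of the 10. At 0 h Dusp8 had 2, 8, 0 and 1 counts in the Nur77 line, against 3, 4, 5 and 6 counts in the GFP line. At 1 h Dusp8 had 32.1, 28.7, 23.6 and 28.9 CPM in the Nur77 line, against 23.4, 26.1, 26.6 and 26.9 CPM in the GFP line. At 5 h Dusp8 had 10.3, 10.7, 10.2 and 8.48 CPM in the Nur77 line, against 5.47, 6.01, 5.19 and 6.83 CPM in the GFP line. The lines overlapped at 0 and 1 h and not at 5 h. The 1 h mean was 146 times the 0 h mean in the Nur77 line and 102 times in the GFP line, ratios that rest on 11 and 18 counts in all at 0 h. The fitted log2 fold change at 1 h in the Nur77 line was 7.19, with and without replicate 2 of that time, and 8.57 without Nur77 line 0 h replicate 2, against 6.66 in the GFP line. At 1 h the lines differed by 0.13 on the log2 scale, with a 95% confidence interval from -0.14 to 0.40, and by 0.12 without replicate 2. At 5 h the log2 fold change between them was 0.78 ± 0.15 (adjusted p = 0.00015). The 5 h level was 35.1% of the 1 h level in the Nur77 line (35.3% without replicate 2) and 22.8% in the GFP line. The difference of that course, 0.65 ± 0.20, did not pass (adjusted p = 0.051). It was 0.66 without replicate 2 (adjusted p = 0.026), and it passed in 5 of the 16 fits that left out 1 library. The differences from 0 h rest on the few counts above. At 5 h the difference of the response was 1.18 (adjusted p = 0.25), and without Nur77 line 0 h replicate 2, which held 8 of the 11 counts, it was 2.56 (adjusted p = 0.011). At 0 h the lines differed by -0.41 on the log2 scale (adjusted p = 0.61) and, without that library, -1.79 (adjusted p = 0.044).

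Dusp16 (NM_130447, chromosome 6, 134715468 to 134807063), which encodes a JNK-directed phosphatase, rose at 1 h and stayed up. At 0 h Dusp16 had 42.0, 39.1, 40.6 and 40.2 CPM in the Nur77 line, against 34.7, 29.8, 34.6 and 30.8 CPM in the GFP line. At 1 h Dusp16 had 169, 168, 169.8 and 193 CPM in the Nur77 line, against 135, 131, 119 and 132 CPM in the GFP line. At 5 h Dusp16 had 165, 181, 166 and 174 CPM in the Nur77 line, against 146, 148, 147 and 147 CPM in the GFP line. The Nur77 libraries were above the GFP libraries at all 3 times. On the log2 scale the lines differed by 0.32 ± 0.06 at 0 h (adjusted p = 0.00019), 0.44 ± 0.06 at 1 h (adjusted p = 9.3e-07, and 0.45 without replicate 2) and 0.22 ± 0.06 at 5 h (adjusted p = 0.0023). The 5 h level was 98.1% of the 1 h level in the Nur77 line (96.9% without replicate 2) and 114% in the GFP line. The rise at 1 h was 2.11 in the Nur77 line (2.13 without replicate 2) and 1.99 in the GFP line on the log2 scale. Their difference was 0.12 (0.14 without replicate 2), its 95% confidence interval -0.05 to 0.29.

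Dusp10 (NM_022019, chromosome 1, 184034381 to 184075636), a phosphatase of JNK and p38, was low and changed little. It had 1.99 to 3.29 CPM over the 12 libraries of the Nur77 line and 2.36 to 4.69 CPM over the 12 of the GFP line. At 5 h it was lower in the Nur77 line. The log2 fold change there was -0.73 ± 0.19 (adjusted p = 0.0032) and the groups overlapped. At 1 h the value was -0.45 ± 0.19 (adjusted p = 0.043). Without replicate 2 it was -0.47 (adjusted p = 0.049), and the call was lost in 5 of 8 fits that left out a library. With LPS, 1 change was called, a rise of 0.54 at 1 h in the GFP line (adjusted p = 0.045), which was lost in 6 of 8 such fits.

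Dusp14 (NM_019819, chromosome 11, 84048033 to 84069256) was also low, and it fell late after LPS in both lines. It had 3.03 to 3.63 CPM at 0 h, 2.37 to 7.81 CPM at 1 h and 0.743 to 1.44 CPM at 5 h in the Nur77 line, against 2.104 to 3.21, 2.24 to 4.01 and 0.594 to 1.34 CPM in the GFP line. The value of 7.81 CPM was that of replicate 2. At 5 h against 0 h the log2 fold change was -1.78 ± 0.35 in the Nur77 line (adjusted p = 7.8e-05) and -1.36 ± 0.33 in the GFP line (adjusted p = 0.00095), and the 5 h libraries lay below all 0 h libraries of their line. The lines overlapped at each time, and no difference between them was called, with log2 fold changes of 0.31 at 0 h, 0.39 at 1 h (-0.12 without replicate 2) and -0.11 at 5 h.

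Across the family, the lines differed in both directions. At 0 h 2 of the 10 were higher in the Nur77 line and 1 was lower, where 20.3% of all genes were higher and 19.7% lower. At 1 h 3 were higher and 4 lower, with and without replicate 2, where 26.4% of genes were higher and 24.8% lower (50.8% called in either direction without it). At 5 h 5 were higher and 4 lower, where 22.0% of genes were higher and 24.4% lower. The median log2 fold change of the 10 was -0.08, 0.04 and 0.06 at 0, 1 and 5 h, and that of all genes was 0.02, 0.01 and 0.00. Dusp6 and Dusp16 were higher and Dusp4 lower in the Nur77 line at all 3 times. Dusp2 was higher and Dusp1, Dusp7 and Dusp10 lower at 1 h and 5 h, and Dusp5 and Dusp8 were higher at 5 h. Macrophage markers also moved with the line: at 5 h they summed to 7372 to 7940 CPM in the Nur77 line and 10604 to 11219 CPM in the GFP line, with 1 of the 11 tested called higher and 7 lower, and their part in these results was not tested.

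**Figure D3:**
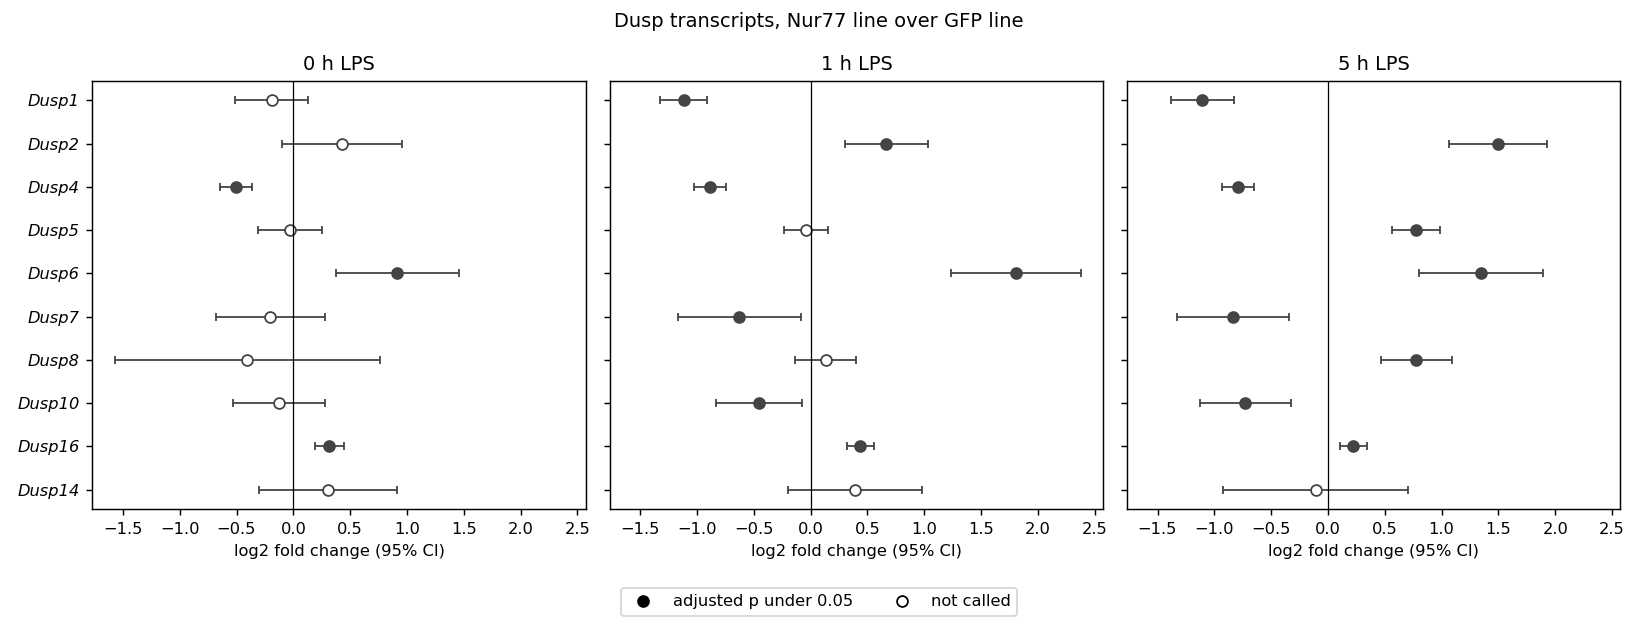
Log2 fold change of each Dusp transcript, Nur77 line over GFP line (x axis, same scale in each panel), at 0, 1 and 5 h of LPS, from all 24 libraries; bars are 95% confidence intervals, and filled points have an adjusted p under 0.05. Dusp4 lies left of 0 and Dusp6 right of 0 in every panel, while Dusp5 lies at -0.03 and -0.04 before it reaches 0.77 at 5 h.

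By 5 h the responses to LPS had partly receded. Against 0 h, 5 of the 10 were higher and 2 lower in the Nur77 line, where 32.5% of genes were higher and 34.2% lower. In the GFP line 6 were higher and 1 lower, where 30.6% of genes were higher and 32.0% lower. From 1 h to 5 h, 1 rose and 6 fell in the Nur77 line, where 26.9% of genes rose and 28.6% fell. Without replicate 2, 2 rose and 6 fell there, where 58.7% of genes were called in either direction. In the GFP line 3 rose and 6 fell from 1 h to 5 h, where 27.5% of genes rose and 27.7% fell. The 5 transcripts that fell in both lines besides Dusp14 were Dusp1, Dusp2, Dusp4, Dusp5 and Dusp8.

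In the fit of all libraries, differences of the response between the lines were called for few genes and few members. At 1 h against 0 h 1 of the 10 was called, Dusp1, where 1.13% of all genes were called. Without replicate 2 the members called were 3, Dusp1, Dusp4 and Dusp7, where 1.82% of genes were called. At 5 h against 0 h 3 were called, Dusp1 lower and Dusp2 and Dusp5 higher, where 7.88% of genes were called. More of the 10 were called there where the shared spread was estimated without replicate 2, as were 13.7% of genes (counts in the closing section). For the course from 1 h to 5 h 1 was called, Dusp5, where 6.55% of genes were called, and 4 without replicate 2 (Dusp2, Dusp5, Dusp7 and Dusp8), where 10.2% were called.

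**Figure D4:**
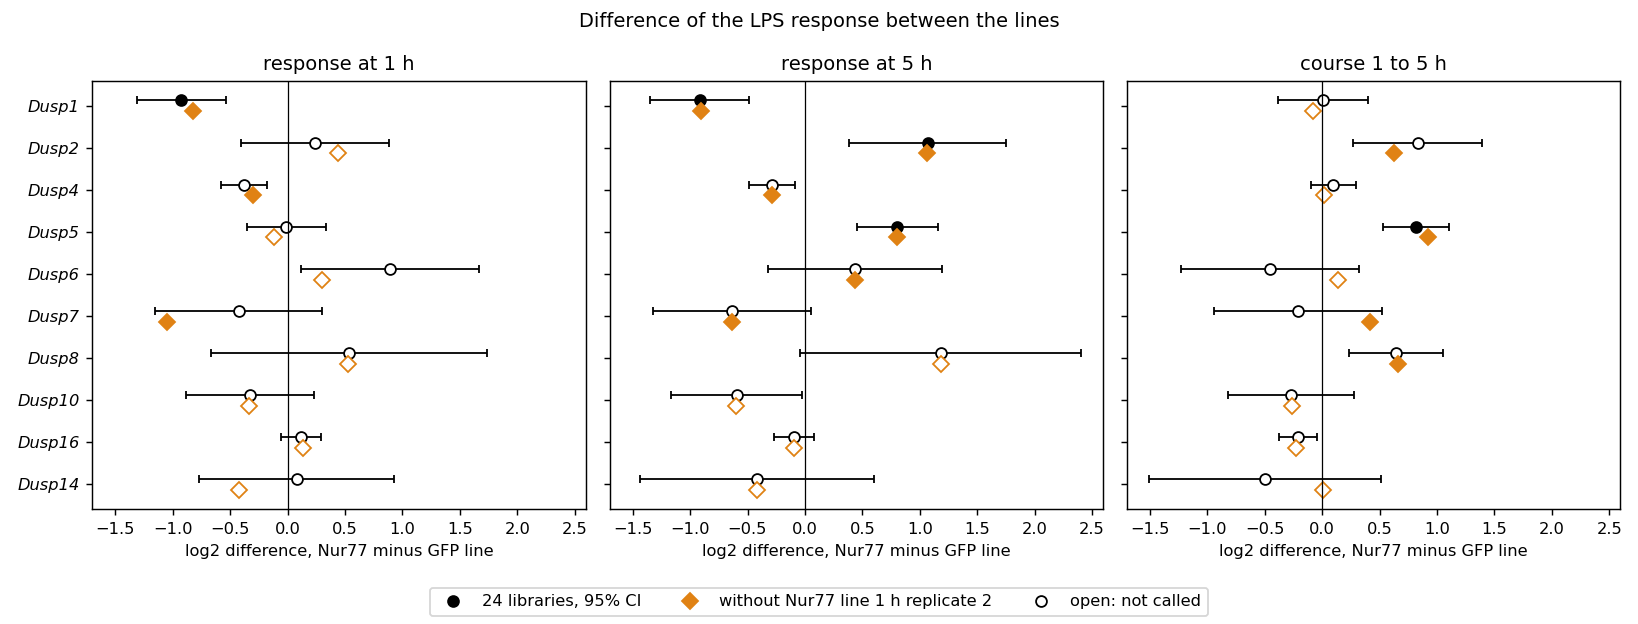
How far the LPS response differed between lines (Nur77 line minus GFP line, log2 scale, x axis) for each Dusp transcript, for 1 h over 0 h, 5 h over 0 h and 5 h over 1 h; circles with bars are the values from all 24 libraries with 95% confidence intervals, filled points have an adjusted p under 0.05, and diamonds give the values without Nur77 line 1 h replicate 2. Dusp1 lies near -0.93 in the first panel and -0.92 in the second, and Dusp5 near 0.80 in the second and 0.82 in the last.

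Divided by transcript length, the summed level of the 10 differed less between the lines than the shares of Dusp4 and Dusp6 in it. The sum was 94.0 ± 1.23, 287 ± 10.8 and 179 ± 4.67 CPM per kb at 0, 1 and 5 h in the Nur77 line (284 ± 11.3 at 1 h without replicate 2, n = 3) and 83.2 ± 1.70, 337 ± 7.87 and 174 ± 3.31 CPM per kb in the GFP line (SD, n = 4 where not stated). Dusp6 held 45.0%, 12.7% and 27.5% of the sum at 0, 1 and 5 h in the Nur77 line (8.58% at 1 h without replicate 2), against 26.9%, 3.07% and 11.1% in the GFP line. Dusp4 held 26.3%, 31.6% and 30.5% in the Nur77 line (33.6% at 1 h without replicate 2), against 42.2%, 49.6% and 54.1% in the GFP line. Dusp6 was thus the largest part of the sum in the Nur77 line at 0 h and Dusp4 in the GFP line. At 1 h Dusp1 held 7.68% in the Nur77 line (8.26% without replicate 2) and 14.2% in the GFP line, and Dusp2 held 17.6% (20.4% without replicate 2) and 9.46%. These shares describe transcripts and give no measure of phosphatase protein.

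**Figure D5:**
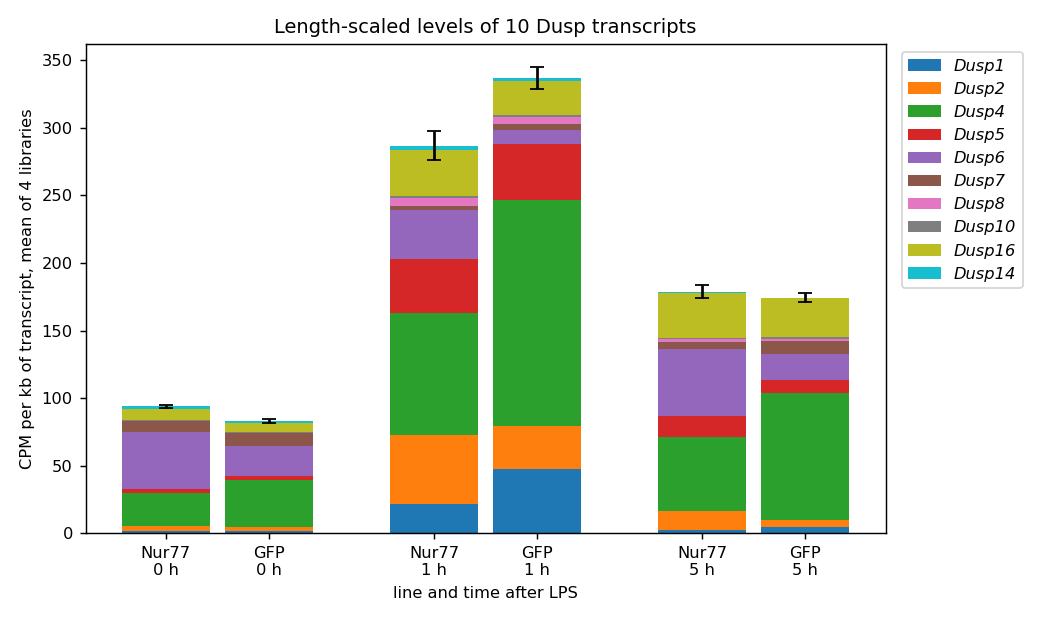
Mean length-scaled level of the 10 Dusp transcripts (y axis, CPM per kb of transcript, from 0), stacked, for the Nur77 and GFP lines at 0, 1 and 5 h of LPS; error bars are the SD of the sum over 4 libraries. The Dusp4 segment is the largest in the GFP line at every time, and the Dusp6 segment is the largest in the Nur77 line at 0 h.

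Over the 6 group means, the courses closest to those of the 5 members with the widest range were sought among 11307 other genes, as the root mean square difference of centred log2 CPM. The course of Dusp5 lay nearest to Rasgef1b (0.22), Junb (0.29) and Errfi1 (0.32). Dusp2 lay nearest to Kdm6b (0.29) and Zfp36 (0.37), and Dusp4 to Mdm2 (0.26), Noct (0.29) and Fosl2 (0.30). Dusp1 lay nearest to Tcim (0.52), Tnfsf9 (0.56) and Csrnp1 (0.59), and Dusp8 to Tnfaip3 (0.66), Cd83 (0.73) and Egr2 (0.82). Without replicate 2 the genes named were the same, apart from Ccrl2 (0.78) in place of Egr2 for Dusp8. Among the members themselves, Dusp2 and Dusp5 lay nearest each other (0.48), as did Dusp4 and Dusp16 (0.67).

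Other genes of the pathway were counted from lists, for the comparisons that do not use the Nur77 line at 1 h. These counts stand beside shares over all genes of 20.3% higher and 19.7% lower between the lines at 0 h, and 22.0% higher and 24.4% lower at 5 h, and nothing particular to a list is read from them. Of 11 tested genes known as ERK outputs, 4 were higher in the Nur77 line and 1 lower at 0 h (median log2 fold change 0.22), and 4 were higher and 2 lower at 5 h (median 0.28). The immediate early factor Egr1 was lower, by -2.60 at 0 h and -0.95 at 5 h, while the ETS factors Etv5 and Etv4 were higher, by 0.63 and 1.60 at 0 h and by 0.28 and 0.91 at 5 h. The AP-1 subunit Fosl1 was higher by 1.05 at 5 h and Myc lower by -0.62. The Sprouty and Spred proteins restrain the step from receptor to ERK. Of the 5 tested, 2 were higher at 0 h and the same number at 5 h and none lower, with Spry4 at 4.18 and 2.76 and Spred1 at 0.58 and 0.43. Spry4 was low, at 4.15 and 6.14 CPM in the Nur77 line and 0.215 and 0.880 CPM in the GFP line at 0 and 5 h.

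Among 10 tested MAP kinases, 5 were higher and 2 lower in the Nur77 line at 0 h, and 3 were higher and 1 lower at 5 h. The p38 isoform Mapk13 had the largest of these log2 fold changes, 3.50 at 0 h and 2.53 at 5 h, but they rest on few counts. Its means at these times were 1.49 and 1.20 CPM in the Nur77 line and 0.131 and 0.204 CPM in the GFP line. The ERK gene Mapk3 stood at -0.22 and -0.34. Of 18 MAP kinase kinase kinases, 4 were higher and 3 lower at each of these times. Map3k14, a kinase of the non-canonical NF-kappaB pathway, stood at 1.35 and 1.26, and Map3k1 at -0.63 and -0.45. Of 10 kinases activated by MAP kinases, 2 were higher at 0 h and none lower, and 1 was higher and 3 lower at 5 h, with Rps6ka1 at 0.79 and Rps6ka2 at -1.73 at 5 h. Of 7 MAP kinase kinases, 2 were higher and 1 lower at 0 h, and 1 higher and 2 lower at 5 h. Of 10 scaffolds, 1 was higher and 3 lower at 0 h, and 2 higher and 4 lower at 5 h. Of 10 other dual-specificity phosphatases that were tested, 3 were higher and 4 lower at 0 h, and 2 higher and 2 lower at 5 h.

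After 1 h of LPS in the GFP line, 7 of the 11 ERK outputs were higher and 1 lower, with a median log2 fold change of 3.03, where 9.75% of all genes were higher and 7.68% lower. Egr2 rose by 6.12 and Myc by 5.07. Of the 18 MAP kinase kinase kinases 2 were higher and 1 lower, and the higher ones were Map3k8, which activates ERK below Toll-like receptors, at 2.60 and Map3k14 at 1.50. Of the 10 MAP kinases 1 was higher and 1 lower. At 5 h against 0 h, the other dual-specificity phosphatases had 4 higher and 3 lower of 10 in the Nur77 line (median -0.17), where 32.5% of genes were higher and 34.2% lower. In the GFP line 2 were higher and 4 lower (median -0.20), where 30.6% of genes were higher and 32.0% lower.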

How the data were processed

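RNA sequencing libraries (KAPA mRNA HyperPrep, per the labels' protocols) were 24, in 6 groups of 4. Per the submitters' processing notes, mm10, HISAT2 2.1.0 and CASAVA 1.8.2 were used. The counting tool, its annotation and strand setting are not named there. The deposited values are the authors' estimated counts for 42361 RefSeq transcripts, not normalized, in multiples of 0.5. Isoforms repeat counts, so each of 25160 genes took the transcript of highest mean count, rounded to whole numbers. Transcripts without a symbol (93) held 0.496% of counts. edgeR 4.0.16 in R 4.3.3 (filterByExpr, TMM, robust quasi-likelihood test) was fitted to 6 group means over all libraries, with 18 residual degrees of freedom. Calls are at a Benjamini-Hochberg adjusted p under 0.05 over 12198 genes. The 12 comparisons share libraries, and each is adjusted separately. Levels per length use GENCODE transcript lengths, and intervals are at 95%. Alternatives were DESeq2 1.42.0, its size factors, the mean over transcripts, a replicate block, a filter of 1 CPM in 4 libraries or none, a fit of just the groups compared, and omission of each library. A shared spread estimated without Nur77 line 1 h replicate 2 was chosen after seeing the data. Library sizes from 8134143 to 29275847 limit precision, most for Dusp8 at 0 h. The members and gene lists were chosen with earlier results of these data known. All members are named in every comparison, and list genes are those with the smallest adjusted p. For 5 members the 3 genes of most similar course are named, except 1 gene that is not reported here.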

Additional observations from a re-analysis of the deposited data

Results flagged for a closer look

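In 11 of 60 sets of 4 libraries (10 transcripts in 6 groups), the highest or lowest library stood apart from the other 3 by Dixon's criterion, where chance flags about 1 in 20 groups. Of these, 5 were in the Nur77 line at 1 h, and 3 of the 5 were its replicate 2: Dusp6 at 207 CPM against 65.1 to 70.5 in the others, Dusp7 at 20.7 against 5.02 to 7.06 and Dusp5 at 119 against 88.3 to 93.5. In the same group replicate 4 had 193 CPM of Dusp16, against 168 to 169.8, and 2.51 CPM of Dusp10, against 3.23 to 3.29. In the Nur77 line at 5 h, replicate 2 had 1.44 CPM of Dusp14, against 0.743 to 0.828, and replicate 4 had 35.0 CPM of Dusp5, against 41.1 to 42.2. In the GFP line at 0 h, replicate 4 had 4.02 CPM of Dusp10, against 2.36 to 2.61, and 75.7 CPM of Dusp6, against 56.3 to 59.5, and replicate 3 had 7.15 CPM of Dusp5, against 5.69 to 5.88. In the GFP line at 5 h, replicate 1 had 8.27 CPM of Dusp1, against 9.26 to 9.35. The causes were not tested.

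The LPS response differed between the lines, by a test of the difference itself, for 3 transcripts. The difference (Nur77 line minus GFP line, log2 scale) was -0.93 at 1 h and -0.92 at 5 h for Dusp1, 1.07 at 5 h for Dusp2, 0.80 at 5 h for Dusp5 and 0.82 from 1 h to 5 h for Dusp5.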

How the results depend on the processing

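Of 120 log2 fold changes (10 transcripts in 12 comparisons), 119 kept their direction and call with the 1 CPM filter, with DESeq2 size factors and with the mean over transcripts, 115 without a filter, 114 of 119 with the DESeq2 Wald test and 106 of 119 where just the groups compared were fitted. For the difference of the 1 h response, 1 member was called, 2 with the 1 CPM filter or the DESeq2 test, 0 where just those groups were fitted (edgeR, with 2 at an unadjusted p under 0.05) and 0 to 3 with a library left out. For the difference of the 1 to 5 h course, 1 was called, 2 with DESeq2 size factors, the mean over transcripts or only the groups compared, 3 with the DESeq2 test and 1 to 4 with a library left out. With the shared spread estimated without Nur77 line 1 h replicate 2, 6 in place of 3 were called for the 5 h response (13.7% of genes), as where just those groups were fitted, and 5 in place of 3 between the lines at 0 h (44.4% of genes).

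Uncalled values near 0 changed sign. The Dusp5 difference at 1 h was 0.0041 with only the groups compared. With a library left out it ranged from -0.12 to 0.12, with reversed values from 0.0082, and the Dusp1 difference of the 1 to 5 h course from -0.082 to 0.076, with the reversed value nearest 0 at -0.00048. Dusp14 ranged from -0.43 to 0.29 for the 1 h difference (nearest 0: -0.00862), from -0.74 to 0.0049 for the course, from -0.19 to 0.53 for the Nur77 line at 1 h, and from -0.12 to 0.59 at 1 h and -0.35 to 0.038 at 5 h between the lines. Between the lines at 0 h, Dusp10 ranged from -0.21 to 0.095, Dusp5 from -0.17 to 0.065 (also 0.027) and Dusp8 from -1.79 to 0.049. Dusp5 at 1 h ranged from -0.15 to 0.0097, Dusp2's 1 h difference from -0.0032 to 0.43, and Dusp16 from 1 to 5 h in the Nur77 line from -0.056 to 0.013 (also 0.00020). The Dusp6 and Dusp7 differences of the course ranged from -0.61 to 0.14 and from -0.38 to 0.42, and the upper end came without replicate 2 at 1 h. The causes of these changes were not tested.

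Same-numbered libraries did not deviate together: over 60 pairs the correlation of their deviations was -0.30 to 0.17 (median -0.015), and 3 of 24 libraries correlated best with their own number. A replicate block kept 117 of 120 calls and changed these: Dusp10 at 1 h, in the GFP line (adjusted p = 0.066) and between the lines (adjusted p = 0.061), and the Dusp2 5 h difference (adjusted p = 0.059). Depth limits Dusp8 at 0 h, with 11 counts in the Nur77 line and 18 in the GFP line.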
